A study of Mus musculus with 8 samples.

Results

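The genes described here are the Myc family and the Max network: Myc, Mycn and Mycl, their shared partner Max, and the Max partners Mxd4, Mnt and Mga. They were taken by gene symbol from the deposited table, and all 7 were found among its 14861 genes, with 1 row each. PRO-seq, which reads RNA polymerase engaged in transcription by letting it extend its nascent RNA in isolated nuclei, was applied to a clonal line of mouse induced pluripotent stem cells with the FUCCI2 cell-cycle reporter. The cells grew on irradiated feeder cells in medium with serum, LIF, a MEK inhibitor and a GSK3 inhibitor. The mitotic group was treated with nocodazole, a microtubule poison, at 200 ng/ml for 6 h and collected by shake-off. The 2 release groups had the same treatment and were then returned to fresh medium for 1 h or 3 h. The asynchronous group was cycling and untreated, so nocodazole exposure and cell-cycle stage cannot be told apart in any comparison with it. The labels list 2 libraries per group and 8 in all, while the table gives 1 combined signal per gene and group. The 1 h release was read from the column headed early G1 and the 3 h release from that headed late G1. No label states this pairing, which rests on the order of the stages.

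MYC, N-MYC and L-MYC are transcription factors of the basic helix-loop-helix leucine zipper class that bind DNA as dimers with MAX and mostly activate genes for growth, ribosome production and metabolism. MXD proteins, MNT and MGA also pair with MAX, bind the same DNA element, the E-box CACGTG, and recruit repressors. In mouse pluripotent cells Myc and Mycn support proliferation, and MGA is part of a Polycomb complex (PRC1.6) that silences germ cell genes.

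With 1 value per group there is no replicate check on any difference below, no test was run, and the depth behind the values is unknown. Folds are descriptions of the authors' signals. A gene is counted as higher or lower at a ratio of at least 2-fold, computed as log2 of (signal + 0.1), which understates the change of weak genes. No source used here says whether the signal is scaled by gene length, so levels are compared between groups and not between genes. The column totals were 16863 in mitosis, 361203 at 1 h, 326086 at 3 h and 309144 in asynchronous cells. The 11 of 12 pluripotency markers in the table summed to 58.1, 1328, 1173 and 1175 in the same order. Pou5f1, the gene of OCT4, had 3.90, 113, 80.0 and 139, below its asynchronous signal at both releases. Of the 11 markers, 7 were above their asynchronous signal at 1 h and 4 below, and at 3 h 4 were above and 7 below. Of 25 fibroblast markers 13 were in the table and summed to 6.73, 189, 175 and 128, with Twist1 and S100a4 listed at 0 in mitosis. Of those 13 markers, 6 were at least 2-fold higher at 3 h than at 1 h, beside 15.1% of all genes, among them the collagen gene Col1a1 (1.97 and 9.37) and Snai2 (1.02 and 5.64). Another 5 of the 13 were lower at 3 h, among them the fibronectin gene Fn1, which gave most of the sum at 1 h (106 and 61.3), and Vim (14.8 and 9.79). The part of the feeder cells in the members' values was not tested. In such bulk samples fewer cells of a type and less RNA per cell cannot be told apart.

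**Figure D1:**
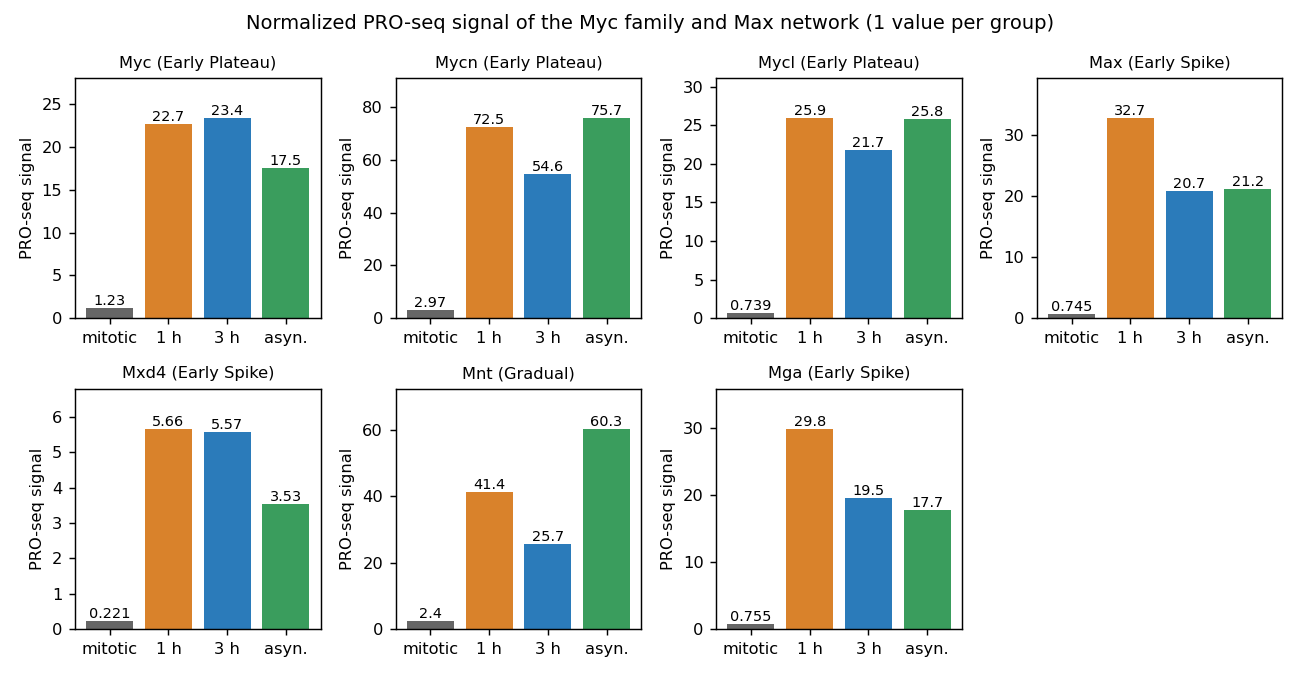
Normalized PRO-seq signal of each member (vertical axes, each on its own scale from 0) in mitotic cells, after 1 h and 3 h of release and in asynchronous cells, 1 value per group, with the authors' temporal class in each title. In the authors' scaling every member is lowest in mitosis; Max and Mga peak at 1 h, and Mnt and Mycn are highest in asynchronous cells.

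The 3 Myc genes returned to about their asynchronous signal within 1 h of release, and Myc alone stood above it at both releases, at 1 h not with quantile normalization. Myc (GRCm38 chromosome 15, start site at 61985564) showed signals of 1.23 in mitosis, 22.7 at 1 h, 23.4 at 3 h and 17.5 in asynchronous cells. Both releases were above the asynchronous value, at 130% and 133% of it, and they differed from each other 1.03-fold. Mycn, the paralog first known from neuroblastoma (chromosome 12, start site at 12941914), had 2.97, 72.5, 54.6 and 75.7 in the same order. It was back at 95.8% of the asynchronous signal at 1 h and stood lower, at 72.1%, at 3 h. Mycl (chromosome 4, start site at 122996099) had 0.739, 25.9, 21.7 and 25.8. Its 1 h and asynchronous signals were nearly equal (100.2%, or a log2 ratio of -0.32 with equal medians), and the 3 h signal was 84.1% of the asynchronous one. Across all genes the median share of the asynchronous signal was 124% at 1 h and 116% at 3 h, so Myc lay slightly above the median gene and Mycn and Mycl below it at both times. With quantile normalization of the columns Myc at 1 h turned to slightly below asynchronous cells (log2 ratio -0.036), while at 3 h it stayed above (0.24).

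The 3 genes also differed from one another across the groups. The ratio of Myc to Mycn signal, which a common scaling of a column cannot change, was 0.414 in mitosis, 0.314 at 1 h, 0.428 at 3 h and 0.231 in asynchronous cells. The ratio was lowest in asynchronous cells and 1.85 times that value at 3 h. The ratio of Mycl to Mycn went the other way in mitosis, at 0.249, against 0.357 at 1 h, 0.398 at 3 h and 0.342 in asynchronous cells. Summed over the 3 genes the signal was 4.93 in mitosis, 121 at 1 h, 99.7 at 3 h and 119 in asynchronous cells. The sum at 1 h was thus near the asynchronous one although Myc was higher and Mycn lower. Mycn gave 54.8% to 63.6% of the sum in the 4 groups, a weight that depends on the unknown scaling between genes.

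Max, which encodes the shared partner of these factors, peaked in the first hour. Max (chromosome 12, start site at 76962201) had 0.745 in mitosis, 32.7 at 1 h, 20.7 at 3 h and 21.2 in asynchronous cells. The 1 h value was the highest of the 4, at 154% of the asynchronous signal, and by 3 h the signal was back at 97.9%. Its 1 h signal was 43.9-fold its mitotic one, the largest such fold among the members, against 17.2- to 39.5-fold for the other 6. Of all genes 96.0% had a smaller log2 ratio of 1 h to mitosis than Max.

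Mga was the member most like Max over the 4 groups. MGA is a very large protein with both a T-box and a helix-loop-helix domain. Mga (chromosome 2, start site at 119897232) had 0.755 in mitosis, 29.8 at 1 h, 19.5 at 3 h and 17.7 in asynchronous cells. It was highest at 1 h, at 168% of the asynchronous signal, and at 110% by 3 h. The ratio of Mga to Max stayed between 0.837 and 1.01 in the 4 groups. At 3 h the direction against asynchronous cells depended on the scaling, with a log2 ratio of 0.13 as deposited and -0.07 with equal column medians.

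Mxd4, which encodes the repressor MAD4, was above its asynchronous signal at both releases. Mxd4 (chromosome 5, start site at 34187710) had 0.221 in mitosis, 5.66 at 1 h, 5.57 at 3 h and 3.53 in asynchronous cells. Both releases were alike and above asynchronous cells, at 160% and 158%. In the authors' scaling its profile over the 4 groups was closest to that of Myc among the members. The distance between their centred profiles was 0.22 on the log2 scale. That of Max and Mga was 0.19, and the other 19 pairs of members lay at 0.40 to 1.34. The likeness of Myc and Mxd4 depended on the scaling. With quantile normalization their log2 ratios of 1 h to asynchronous cells were -0.036 and 0.53, and those of 3 h to 1 h were 0.28 and -0.18. Their ratios to asynchronous cells in mitosis (0.37 and 0.29) and at 3 h (0.24 and 0.34) stayed nearer each other.

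Mnt was below its asynchronous signal at both releases. MNT is a broadly present repressor that competes with MYC for MAX. Mnt (chromosome 11, start site at 74830920) had 2.40 in mitosis, 41.4 at 1 h, 25.7 at 3 h and 60.3 in asynchronous cells. Both releases were below the asynchronous value, at 68.7% and 42.6%, and the 3 h value was 2.35-fold below it. Mnt was the only member at least 2-fold from its asynchronous signal after release, 1 of 7 lower at 3 h, beside 5.14% of all genes. Of all genes 3.38% had a lower ratio in that comparison. The log2 ratio was -1.23 and ran from -1.43 to -1.21 over the 8 alternative settings, all past 2-fold.

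Mnt was lower relative to Max at both releases than in the other groups. The ratio of Mnt to Max signal was 3.22 in mitosis and 2.84 in asynchronous cells, and 1.27 at 1 h and 1.24 at 3 h. The releases were thus below both other groups, and the 3 h ratio was 2.30 times smaller than the asynchronous one. The ratio of Mnt to Mga was 3.18 in mitosis and 3.40 in asynchronous cells, against 1.39 and 1.32 at the releases. The ratio of Mycn to Max was likewise lower at 1 h (2.22) and 3 h (2.63) than in mitosis (3.98) and asynchronous cells (3.57).

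**Figure D2:**
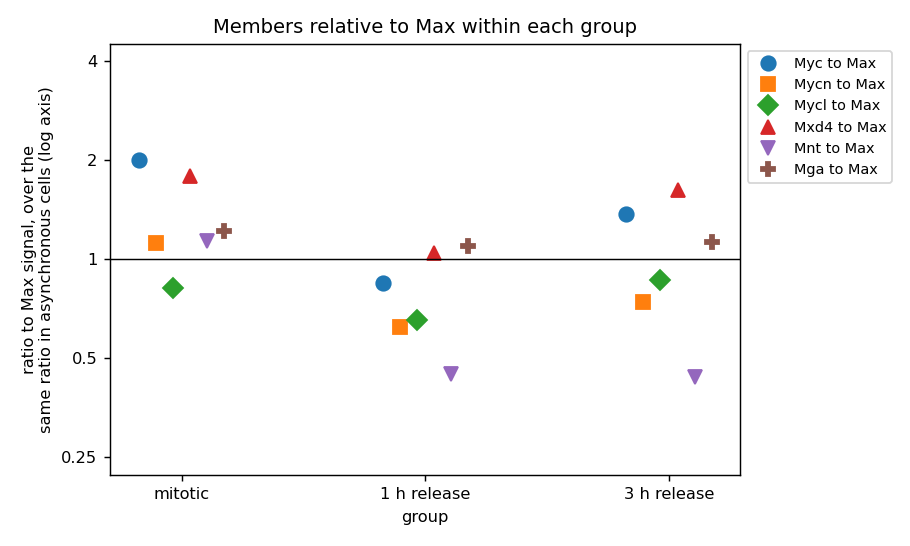
Ratio of each member's signal to that of Max within a group, divided by the same ratio in asynchronous cells (log axis, line at 1), for mitotic cells and the 1 h and 3 h releases. Mnt to Max lies at 0.445 at 1 h and 0.436 at 3 h, the lowest points of both releases, while Mga to Max stays between 1.09 and 1.21.

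The authors' temporal classes put the 3 Myc genes together and Max with Mxd4 and Mga. The rule behind the classes was not used here, and they describe the same 4 columns, so they are no separate evidence. Myc, Mycn and Mycl were all in the class Early_Plateau, which holds 26.3% of the genes in the table. Max, Mxd4 and Mga were in Early_Spike (33.6% of genes), Mnt was in Gradual (15.4%), and no member was in Transient (24.7%). The median gene of Early_Plateau was at 108% of its asynchronous signal at 1 h and 93.4% at 3 h, that of Early_Spike at 191% and 127%, and that of Gradual at 49.2% and 64.5%. Myc at 3 h (133%) was above the median of its class, and Mnt, unlike the median gene of Gradual, was lower at 3 h than at 1 h.

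In mitosis every member was far below its asynchronous signal in the authors' scaling, as was nearly every gene. All 7 members were at least 2-fold lower, beside 99.1% of all genes. Myc kept 7.01% of its asynchronous signal and Mxd4 6.26%, above the 5.31% of the median gene. Mga kept 4.25%, Mnt 3.98%, Mycn 3.92%, Max 3.52% and Mycl 2.86%, all below it. The median log2 ratio of the members was -4.59, and that of all genes tested was -3.89. The gap depended on the pseudocount: with 0.02 the medians were -4.64 and -4.14, and with 0.5 they were -4.12 and -3.23. These mitotic signals lie between 0.221 and 2.97, and with the columns rescaled to equal medians no member was past 2-fold, and Myc and Mxd4 turned to above asynchronous cells (log2 ratios 0.43 and 0.27), as they did with equal totals and quantile normalization.

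At 1 h all 7 members were at least 2-fold above mitosis, beside 99.3% of all genes, with a median log2 ratio of 4.56 against 4.21 for all genes. Both counts rest on the authors' scaling, since no member passed 2-fold with equal medians, and Myc and Mnt turned to below mitosis (log2 ratios -0.38 and -0.48), as they did with equal totals and quantile normalization. From 1 h to 3 h no member passed 2-fold, beside 15.1% of all genes higher and 7.52% lower. Only Myc was above its 1 h signal at 3 h, and with equal medians Mxd4 was too (log2 ratio 0.09). The members' median log2 ratio was -0.41, and that of all genes was -0.08. Mnt (-0.69), Max (-0.65) and Mga (-0.61) were the lowest of the members. At 1 h against asynchronous cells no member passed 2-fold either, beside 17.7% of all genes higher and 9.53% lower. At 3 h against asynchronous cells none was at least 2-fold higher, beside 16.9% of all genes. The comparisons share columns, so a member high in one group enters several of them.

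**Figure D3:**
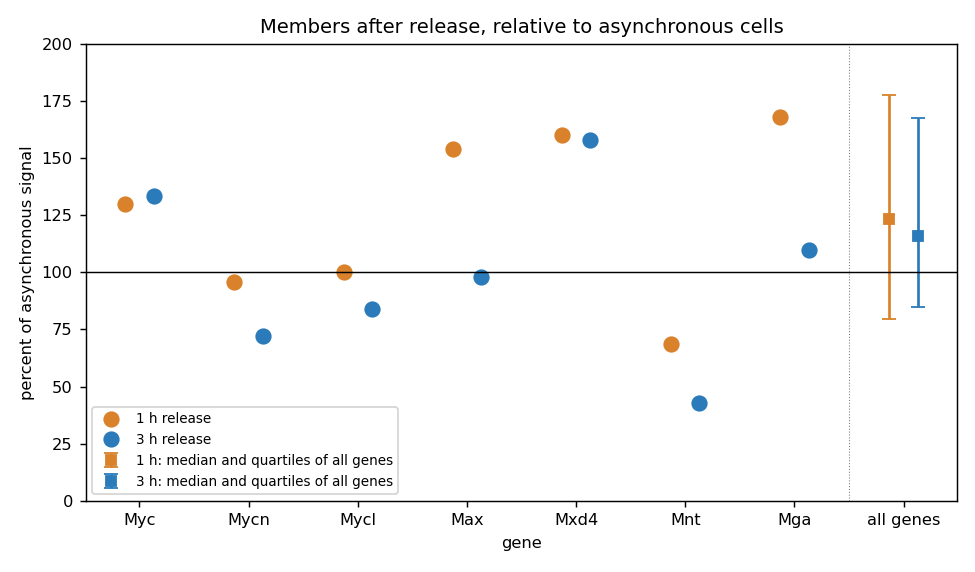
Signal of each member at the 1 h and 3 h releases as a percent of its asynchronous signal (line at 100), with the median and quartiles of all 14768 genes that have an asynchronous signal at the right. Max and Mga are at 154% and 168% at 1 h and at 97.9% and 110% at 3 h, Myc is at 130% and 133%, Mxd4 at 160% and 158%, and Mnt is lowest at 68.7% and 42.6%.

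The promoters of 3 members hold the E-box to which the network's own dimers bind. RefSeq windows of GRCm38.p6, from 250 bases before to 50 after the annotated start, were searched for CACGTG, which reads the same on both strands, and 6 of the 7 members had a window. The motif was present in Mxd4, Mnt and Max and not in the windows of Mycn, Mycl and Mga. The RefSeq starts of the windows lay 168 bases from the start used for the signal in Mycl, 78 in Mycn and 47 in Max. In Mnt and Mga they lay 4 bases away, and in Mxd4 they were the same. The Mycl window (122995681 to 122995980) does not reach the start used for its signal. Among the 11496 genes of the table with a window, 11.2% held it, and 9.52% of their 14534 windows did. The stretches around the motif are shown because the 3 genes include the pair of members with the most different profiles, Mxd4 and Mnt (distance 1.34). They are written 5′ to 3′ along the gene with the E-box in capitals. Distances are counted from the RefSeq start, which for Max is not the start site given above.
Mxd4, chr5:34187912-34187941, minus strand, E-box beginning 219 bases before the start: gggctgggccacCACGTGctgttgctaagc
Mnt, chr11:74830789-74830818, plus strand, E-box beginning 123 bases before the start: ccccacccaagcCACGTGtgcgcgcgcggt
Max, chr12:76962234-76962263, minus strand, E-box beginning 3 bases before the start: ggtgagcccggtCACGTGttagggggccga
At 3 h these genes stood at 158% (Mxd4), 42.6% (Mnt) and 97.9% (Max) of their asynchronous signal. The members whose windows lack the motif stood at 72.1% (Mycn), 84.1% (Mycl) and 110% (Mga). Any part of the motif in these values was not tested. A match is a description of the letters and not a binding site.

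The other genes of the wider network, from a list of 7, gave a mixed picture. Mxd1, which encodes MAD1, had 0.418 in mitosis, 13.5 at 1 h, 7.47 at 3 h and 6.01 in asynchronous cells. It was the only one of the 7 at least 2-fold higher at 1 h than in asynchronous cells (log2 ratio 1.15), beside 17.7% of all genes. Mxd3, another MXD repressor gene, had 7.44, 157, 107 and 90.9, with its peak at 1 h as well. Mlx, which encodes the partner of the glucose-sensing factors MondoA and ChREBP, had 2.14, 162, 193 and 103, and its log2 ratio of 1 h to mitosis (6.18) exceeded that of every member. Mlxipl, the gene of ChREBP, had 0.211, 4.004, 12.9 and 7.17 and was the only gene of this list at least 2-fold higher at 3 h than at 1 h, beside 15.1% of all genes. Tcfl5, a helix-loop-helix gene, was the lowest of the 7 against asynchronous cells at both releases, with 8.39 at 1 h, 11.5 at 3 h and 16.7 in asynchronous cells. The list's median log2 ratio to asynchronous cells was 0.39 at 1 h and 0.24 at 3 h, close to the 0.30 and 0.21 of all genes.

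Among 16 genes listed as MYC cofactors, 2 were at least 2-fold higher and 1 lower at 1 h than in asynchronous cells. Of all genes 17.7% were higher and 9.53% lower. The list also holds genes of corepressor complexes, Sin3a, Sin3b, Ncor1 and Hdac2. Ep400, a chromatin remodeller gene, had 24.6 at 1 h, 10.2 at 3 h and 9.22 in asynchronous cells, and Zbtb17, the gene of the MYC partner MIZ1, had 31.2, 19.1 and 13.6. Kat5, which encodes the acetyltransferase TIP60, was the lower one, with 36.1, 58.7 and 83.2. From 1 h to 3 h 2 were at least 2-fold lower, beside 7.52% of all genes: Sin3a, the scaffold gene of the corepressor that MXD proteins recruit (28.3 and 11.3), and Ep400. At 3 h none of the 16 was past 2-fold from asynchronous cells, beside 16.9% of all genes higher and 5.14% lower.

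Genes for the stability of the MYC protein were mostly higher at 1 h than at 3 h. Of 18 listed, 17 were in the table, and 5 were at least 2-fold higher and 1 lower at 1 h than in asynchronous cells, beside 17.7% and 9.53% of all genes. Fbxw7, the gene of the ubiquitin ligase subunit that marks MYC for destruction, had 0.944 in mitosis, 29.1 at 1 h, 37.1 at 3 h and 7.63 in asynchronous cells. It was above asynchronous cells at both releases (log2 ratios 1.92 and 2.27), the only one of the 17 at least 2-fold higher at 3 h, beside 16.9% of all genes. Gsk3b, the gene of a kinase that prepares MYC for FBXW7, had 33.1 at 1 h, 20.7 at 3 h and 11.2 in asynchronous cells. Aurka, a mitotic kinase gene whose product shields N-MYC, was the lower one at both releases, with 21.2, 13.6 and 48.7. Of the 17 genes 12 were in the class Early_Spike, that of Max and Mga, beside 33.6% of all genes. Of the 17, 16 had a lower signal at 3 h than at 1 h, beside 53.8% of all genes (median log2 ratio -0.64, against -0.08). These are transcription values, and protein levels were not measured.

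Mga's partners in PRC1.6 were described from a list of 12 genes. Of 12 genes 1 was at least 2-fold higher at 1 h than in asynchronous cells, Rybp (49.99 and 23.2), which encodes a PRC1 subunit, and 1 at 3 h, E2f6 (10.9 and 5.05), the gene of the complex's E2F factor. All genes gave 17.7% and 16.9% higher in these comparisons. None of the 12 was at least 2-fold lower in either, beside 9.53% and 5.14% of all genes. With 12 genes these counts are too small to read as a trait of the list. Rybp, like Mga, peaked at 1 h and was lower at 3 h (27.9). Pcgf6, the gene of the subunit that defines PRC1.6, had 0.866 in mitosis, 19.2 at 1 h, 13.7 at 3 h and 20.6 in asynchronous cells. Of the 12 genes 7 were in the class Early_Plateau and 3 in Early_Spike, beside 26.3% and 33.6% of all genes. Wdr5 stands on this list and on that of the cofactors.

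Known targets were described from lists of 40 activated genes, 39 of them in the table, and 12 repressed genes. Of the activated targets 2 were at least 2-fold higher at 3 h than in asynchronous cells and 3 lower, beside 16.9% and 5.14% of all genes, with a median log2 ratio of -0.26 against 0.21. At 1 h 3 were higher and 2 lower, beside 17.7% and 9.53%, and the median was 0.35 against 0.30. The 2 higher at 3 h were Tert, the gene of the telomerase catalytic subunit, and Cad, a pyrimidine synthesis gene. Tert had 36.7 at 1 h, 92.0 at 3 h and 15.6 in asynchronous cells, and Cad had 47.3, 55.5 and 26.2. Nop56, a nucleolar protein gene (209, 128 and 348), and Ldha, a lactate dehydrogenase gene (29.9, 29.0 and 73.3), were the lowest at 3 h. The other gene lower at 3 h was Shmt2, a serine metabolism gene (9.96, 19.7 and 46.8). The 2 lower at 1 h were Shmt2 (log2 ratio -2.22) and Ldha (-1.29). The E-box was present in 12 of the 34 activated targets with a promoter window (35.3%), beside 11.2% of all genes of the table with one.

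Of the 12 repressed genes 6 were at least 2-fold lower at 3 h than in asynchronous cells and none higher, beside 5.14% and 16.9% of all genes, with a median log2 ratio of -0.65. At 1 h 2 were higher and 3 lower, beside 17.7% and 9.53%, with a median of -0.11. Among the 6 lower at 3 h, Cebpa (1.73 at 1 h, 3.61 at 3 h and 7.33 in asynchronous cells) lay at the threshold itself. Ccng2, the cyclin G2 gene, was lowest (9.01 at 1 h, 1.46 at 3 h and 28.0 in asynchronous cells), and Ndrg2 followed (2.30, 0.479 and 2.26). Cdkn1a, which encodes the CDK inhibitor p21, was the highest of the 12 (277, 202 and 117), and it is also a target of p53. No statement on MYC activity follows from these counts.

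**Figure D4:**
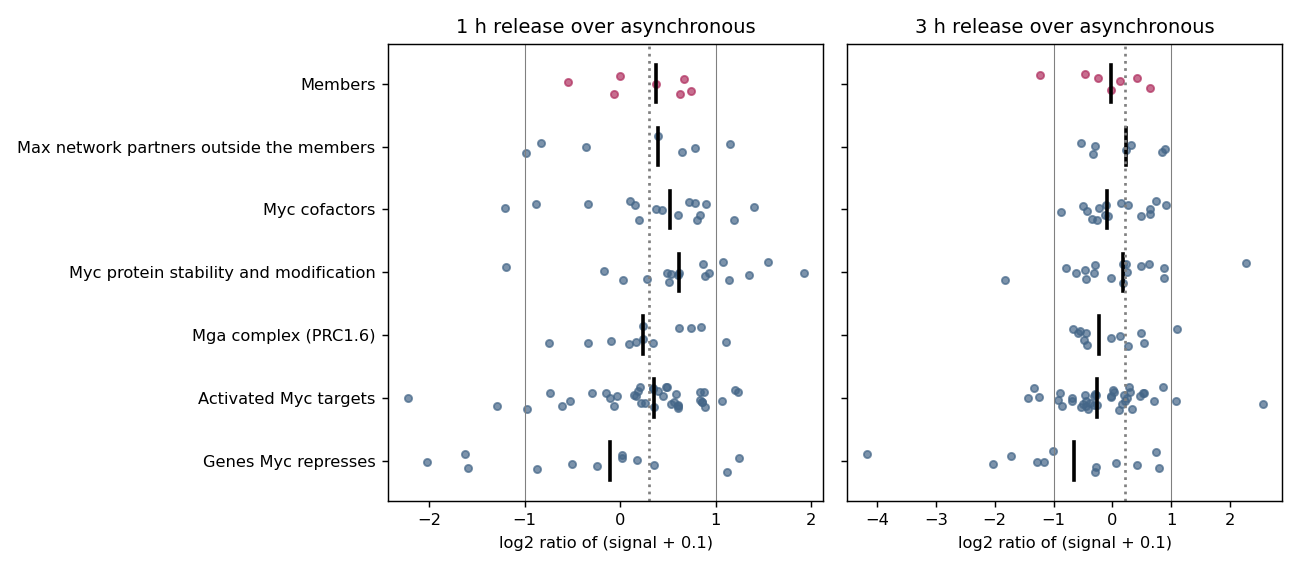
Log2 ratio of (signal + 0.1) at the 1 h (left) and 3 h (right) release over asynchronous cells for the members and the 6 lists of network genes; each point is a gene, black bars are list medians, the dotted line is the median of all genes and thin lines mark 2-fold. Among the members only Mnt crosses a 2-fold line, at 3 h, and the repressed genes have the lowest list median at 3 h, -0.65.

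For each member the 3 most alike genes were taken by the Euclidean distance between centred log2 profiles over the 4 groups, among 13695 genes. Myc was closest to Maml2 (0.04), Arl6ip5 (0.05) and Trib1 (0.05). Mycn was closest to Rpl27a (0.02), Pclaf (0.03) and Klhdc9 (0.05), and Mycl to Ndufaf3 (0.06), Tmem91 (0.06) and Pgap2 (0.08). Max was closest to Rbm28, Mrpl40 and Clptm1, Mxd4 to Tm2d3, Polr2m and Tmbim4, Mnt to Aars, Irf1 and Ankrd34a, and Mga to Cttn, Tfap2a and Pop5, at distances of 0.02 to 0.10. With 4 values per gene such matches are not stable: with quantile normalization 3 of these 21 genes remained among the 3 nearest, Trib1, Aars and Cttn.

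The distance from a member to the next start in the table varied widely, and the spacing of other genes was not computed. The nearest listed start on either side was 18258 to 2012405 bases away. Of these 14 neighbours 2 were in the class of their member, Ddx1 beside Mycn and Haus3 beside Mxd4. The members' classes hold 26.3% (Early_Plateau), 33.6% (Early_Spike) and 15.4% (Gradual) of all genes. With so few neighbours the count is not read as a trait of the members. Myc stood most alone, with Fam84b 1160484 bases to one side and Fam49b 2012405 bases to the other. In the RefSeq annotation of GRCm38.p6 only the span of Mga overlapped another gene, the pseudogene Gm13998. The start that the table uses for Mga lies 24729 bases inside the longest annotated span of that gene. It is 4 bases from the RefSeq start whose window was searched for the E-box. The starts used for the other 6 members lie within 511 bases of the start of their spans.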

How the data were processed

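The deposited table gives, per the file headers, the authors' normalized PRO-seq signal, with 1 column per group in place of the 2 libraries that the labels list. The submitters' processing notes name cutadapt, Bowtie2, Picard and SAMtools and the build GRCm38 (mm10), with no versions. No source used here gives the combining of libraries, the counting per gene and its use of strand, or the scaling of columns. The temporal class is a text label of another kind, deposited by the authors.

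Log2 ratios of (signal + 0.1) were computed with Python 3.11.15 and pandas 2.3.3 for 5 comparisons. Genes with a mean signal under 0.5 (47) or a value of 0 in a compared column were left out of the counts, and all 7 members passed. Percentages of the asynchronous signal carry no pseudocount. The ratio step was tested on simulated data. Alternatives were other pseudocounts, filters and scalings. The members and gene lists were chosen with earlier results of these data known. Named genes are the members, the 3 nearest profiles of each, the nearest starts, and up to 2 genes at each end of a list in a comparison. The identity of the proteins, which had been planned, was not analysed here.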

Additional observations from a re-analysis of the deposited data

How the results depend on the processing

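No paired analysis was possible because the table holds 1 combined column per group, and for the same reason no library could be left out. The ratios of the 7 members kept their direction and their side of 2-fold in all 175 values from other pseudocounts, filters and genes at 0. Scaling mattered for the mitotic column. The members' median log2 ratio of mitotic to asynchronous cells (-4.59) became -0.38 with equal medians, -0.45 with equal totals and -0.45 with quantile normalization, with 0 members at least 2-fold lower in each, and 1011, 1170 and 972 of all genes in place of 14321. That of 1 h to mitosis (4.56) became 0.083, 0.25 and 0.24, with 0, 1 and 0 members higher and 715, 1132 and 800 of all genes in place of 14360. In mitosis Myc turned to 0.43, 0.36 and 0.37 and Mxd4 to 0.27, 0.19 and 0.29, in the same order. From mitosis to 1 h Myc turned to -0.38, -0.21 and -0.40 and Mnt to -0.48, -0.31 and -0.43. The median gene turned to 0.047 and 0.023 in mitosis with equal medians and quantile normalization, and to -0.067 at 1 h over mitosis with equal medians. These changes follow from the rescaling itself, which removes the general fall.

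At 1 h over asynchronous cells the members' median (0.38) was -0.036 with quantile normalization. Counts of all genes moved by over 1.5 times as follows. With a minimum mean of 2.5 fewer genes were tested, 12238 in place of 14699 for 3 h over 1 h. It was 12242 in place of 14661 for 1 h over asynchronous cells, and 12254 in place of 14695 for 3 h over asynchronous cells. Counts with that filter are thus not shares of the same number of genes. For 3 h over 1 h, 1255 were higher (2226) with a minimum mean of 2.5, and 694 lower (1106) with equal totals. For 1 h over asynchronous cells, 1277, 1573 and 1364 were higher (2596) with equal medians, equal totals and quantile normalization, and 925 and 2181 lower (1397) with a minimum mean of 2.5 and equal medians. For 3 h over asynchronous cells, 1637 and 1625 were higher (2483) with a minimum mean of 2.5 and quantile normalization, and 1162 and 1472 lower (755) with equal medians and quantile normalization.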
